A study of Homo sapiens with 16 samples.

Results

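The comparison described here sets HepG2 cells that received both treatments, PD98059 and medium without histidine, against HepG2 cells that received neither, and asks what state the 2 treatments leave together and where they add or cancel. It rests on 8 of the 16 arrays of the study, chosen by their titles: 4 arrays of cells given PD98059 in histidine-free medium, and 4 arrays of cells given DMSO in complete medium. The other 8 arrays, 4 of PD98059 in complete medium and 4 of DMSO in histidine-free medium, entered the same fit and gave the single effects. HepG2 is an established human liver tumour line that keeps many hepatocyte functions. PD98059 is a small molecule that blocks activation of the kinase MEK1, and it was used at 2.5 uM, dissolved in DMSO. All cells were kept for 1 h with PD98059 or an equal volume of DMSO, and then for 8 h in complete or histidine-free Dulbecco's medium with that same addition still present. The 4 arrays of a group came from independent incubations of this 1 line, so the p-values measure the spread between incubations.

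Lack of an essential amino acid leaves uncharged tRNA in the cell, which activates the kinase GCN2. GCN2 phosphorylates the initiation factor eIF2alpha, general translation slows, and the transcription factor ATF4 is made and drives genes for amino acid synthesis, uptake and tRNA charging. MEK phosphorylates and activates ERK, which acts on transcription factors of the ETS family and so raises immediate-early genes and its own feedback inhibitors, the Sprouty proteins and dual-specificity phosphatases.

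Values are log2 expression values as deposited, so a difference of 1 is a 2-fold difference, and a level of 1 gene is not set against that of another. A gene was called when the Benjamini-Hochberg adjusted p of limma's test, over all 22464 named genes, was under 0.05. Array medians lay between 6.20 and 6.28, and arrays of a group correlated at 0.996 to 0.998 across rows. Replicate 3 of PD98059 without histidine stood apart: it deviated from the mean of its group by 0.111 on the log2 scale (root mean square over genes), and the other arrays by 0.0496 to 0.0760. Counts are therefore also given without it. All 7 hepatocyte markers measured were above the median of all values in every group, as were all 5 biliary and stem-like markers. So were 4 of 6 fibroblast, 4 of 6 leukocyte and 3 of 7 endothelial markers. The mean level of the 7 hepatocyte markers was 10.85 to 10.93 with both treatments and 10.89 to 10.93 with neither. In the net comparison 2 of these 7 were called, where 28.1% of all genes were: TTR fell by 0.29 and FGB rose by 0.23. Of 5 biliary and stem-like markers 3 were called in the net comparison: SOX9 was 0.24 higher, and KRT19 and KRT23 fell by 0.25 and 0.16; the mean level of the 5 was 9.80 to 9.84 with both treatments and 9.84 to 9.86 with neither. For other liver cells, 1 of 6 fibroblast, 1 of 6 leukocyte and 1 of 7 endothelial markers was called, and mean levels of the 3 lists were 6.04 to 6.20, 6.59 to 6.73 and 5.74 to 5.85 with both treatments, against 6.03 to 6.08, 6.61 to 6.67 and 5.75 to 5.81 with neither.

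Promoters of 4 genes on which the results turn are shown because they hold the letters known for each pathway. The windows are from RefSeq on GRCh38.p14, 250 bases before to 50 bases after the gene's start, 5′ to 3′ on the gene's strand, and capitals mark the motif. ASNS, which makes asparagine, lies at chr7:97872359-97872658 on the minus strand. CHAC1, which degrades glutathione, lies at chr15:40953221-40953520 on the plus strand. AARS1, the alanyl-tRNA synthetase, lies at chr16:70289457-70289756 on the minus strand. EGR1, a zinc finger transcription factor induced by growth factors, lies at chr5:138465229-138465528 on the plus strand.
ASNS: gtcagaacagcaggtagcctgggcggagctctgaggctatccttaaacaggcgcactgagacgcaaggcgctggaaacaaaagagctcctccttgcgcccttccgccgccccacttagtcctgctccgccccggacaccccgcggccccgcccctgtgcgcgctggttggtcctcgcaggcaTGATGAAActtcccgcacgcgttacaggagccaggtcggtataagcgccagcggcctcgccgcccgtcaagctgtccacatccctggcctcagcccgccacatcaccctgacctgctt
CHAC1: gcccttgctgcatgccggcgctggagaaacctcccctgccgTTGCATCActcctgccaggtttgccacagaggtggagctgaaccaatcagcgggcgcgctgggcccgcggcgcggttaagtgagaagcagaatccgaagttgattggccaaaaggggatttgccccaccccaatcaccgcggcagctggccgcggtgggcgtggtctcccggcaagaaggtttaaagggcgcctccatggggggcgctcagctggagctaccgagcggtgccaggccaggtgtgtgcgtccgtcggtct
AARS1: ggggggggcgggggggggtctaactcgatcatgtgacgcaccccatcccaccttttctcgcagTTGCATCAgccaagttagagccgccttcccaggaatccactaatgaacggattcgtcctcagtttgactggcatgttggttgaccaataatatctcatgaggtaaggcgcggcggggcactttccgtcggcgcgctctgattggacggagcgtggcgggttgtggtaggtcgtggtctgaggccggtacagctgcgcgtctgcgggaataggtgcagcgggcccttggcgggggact
EGR1: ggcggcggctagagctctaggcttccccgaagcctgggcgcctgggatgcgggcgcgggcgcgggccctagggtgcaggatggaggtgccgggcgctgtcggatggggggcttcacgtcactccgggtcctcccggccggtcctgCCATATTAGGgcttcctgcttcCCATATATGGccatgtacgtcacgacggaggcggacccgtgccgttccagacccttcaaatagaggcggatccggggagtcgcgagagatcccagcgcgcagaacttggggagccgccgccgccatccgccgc
In the first 3 the capitals match TGATGNAA on either strand, the core of the element that ATF4 binds with C/EBP proteins, and in EGR1 they mark 2 CArG boxes, the element bound by serum response factor. The match began 68 bases before the start in ASNS, 209 bases before it in CHAC1 and 187 bases before it in AARS1, and the EGR1 boxes began 105 and 83 bases before it. TGATGNAA was found in 3.62% of 35116 windows of all genes. It was found in 7 of 21 windows of tRNA synthetase genes, 5 of 24 of amino acid transporter genes, 2 of 12 of amino acid synthesis genes, 4 of 27 of amino acid response regulators, 1 of 25 of immediate-early genes and 2 of 28 of MEK and ERK output genes. Lists outside these pathways held it too: 2 of 10 windows of bile acid and FGF19 genes, 2 of 19 of Kruppel-like factors, and 0 to 9.09% of windows in the rest. The CArG box was found in 1.29% of all windows, in 2 of 25 windows of immediate-early genes and in 0 of 28 of MEK and ERK output genes. It was also found in 1 of 11 windows of histidine use genes and 1 of 13 of P450 genes, with 0 to 5.26% in the other lists. A match is a description of the letters in the window and not evidence of binding in these cells.

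With both treatments most measured genes of the amino acid response were higher than in untreated cells. Most measured genes of cholesterol synthesis, heat shock and DNA replication were lower, as were most ATF6 and XBP1 targets of the unfolded protein response. Immediate-early genes and MEK and ERK outputs were divided among higher, lower and not called. In the net comparison 6315 genes were called, 28.1% of those tested: 3013 were higher with both treatments, 13.4%, and 3302 were lower, 14.7%. Most of these differences were small: 116 genes, 0.516%, were called and at least 1.5-fold higher, and 87, 0.387%, were called and at least 1.5-fold lower. Without replicate 3 of PD98059 without histidine, 3220 were higher and 3422 lower, with 128 and 73 at least 1.5-fold. The median change over all genes was 0.02.

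Of 22 regulators and effectors of the amino acid response, 21 were higher with both treatments, none was lower, and SESN3 was not called; the median net change was 0.75. The same direction held for 2 genes counted on other lists, ASNS among the synthesis enzymes and INHBE among the activin genes. ASNS was 9.81, 9.89, 9.61 and 9.83 with PD98059 and no histidine, 8.17, 8.14, 8.05 and 8.06 with PD98059 in complete medium, 10.12, 10.08, 10.08 and 10.10 with DMSO and no histidine, and 8.14, 8.05, 8.12 and 8.14 with DMSO in complete medium. The arrays with both treatments lay above all arrays in complete medium and below all arrays of depletion with DMSO. The net change was 1.67 ± 0.048 (SE), 3.19-fold, with a 95% interval of 1.57 to 1.78 and an adjusted p of 8.91e-13 by limma.

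INHBE, a hepatokine of the inhibin and activin family, had the highest net change among the genes named by rule. Its arrays read 9.92, 10.02, 9.97 and 10.04 with both treatments, 8.61, 8.54, 8.44 and 8.51 with PD98059 alone, 9.96, 9.95, 9.95 and 9.98 with depletion alone, and 7.86, 7.87, 8.13 and 8.08 with neither. The net change of INHBE was 2.00 ± 0.055, 4.01-fold, with adjusted p = 5.29e-13 by limma. Either treatment alone raised it, and the arrays with both overlapped those of depletion alone.

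Of the 22 regulators and effectors, DDIT4, an inhibitor of mTORC1 signalling, was likewise raised by either treatment alone. It was 11.35, 11.45, 11.50 and 11.40 with both treatments, 10.00, 10.10, 10.09 and 10.08 with PD98059 alone, 11.47, 11.48, 11.54 and 11.55 with depletion alone, and 9.75, 9.52, 9.64 and 9.66 with neither, a net change of 1.78 ± 0.044. SESN2, a sestrin that also restrains mTORC1, was 10.81, 10.94, 10.96 and 10.86 with both treatments, 9.56, 9.66, 9.58 and 9.63 with PD98059 alone, 11.32, 11.35, 11.28 and 11.32 with depletion alone, and 9.36, 9.27, 9.42 and 9.38 with neither. Its net change was 1.54 ± 0.038, and its arrays with both treatments lay below those of depletion alone.

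DDIT3, which encodes the transcription factor CHOP, showed a called depletion effect and no called drug effect (adjusted p = 0.361 by limma). It was 8.72, 8.76, 8.56 and 8.75 with both treatments, 7.24, 7.27, 7.10 and 7.15 with PD98059 alone, 8.67, 8.71, 8.67 and 8.75 with depletion alone, and 7.28, 7.24, 7.27 and 7.33 with neither. The net change was 1.42 ± 0.044, or 2.67-fold. Smaller net rises were those of TRIB3, a pseudokinase that binds ATF4, at 0.81, of the transcription factor ATF3 at 0.70, of CHAC1 at 0.60, of CEBPB, a partner of ATF4, at 0.44 and of ATF4 itself at 0.19. VEGFA, an angiogenic factor, rose by 0.78.

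Of 13 enzymes of amino acid synthesis and one-carbon metabolism, 11 were higher, ALDH18A1 was lower and 1 was not called, with a median of 0.59, ASNS among them. CTH, the last enzyme of cysteine synthesis, was 9.03, 9.29, 9.07 and 9.22 with both treatments, 7.88, 7.87, 7.76 and 7.87 with PD98059 alone, 9.68, 9.68, 9.53 and 9.63 with depletion alone, and 7.83, 7.73, 7.77 and 7.75 with neither. Its net change was 1.38 ± 0.052. PCK2, the mitochondrial phosphoenolpyruvate carboxykinase, rose by 1.14, MTHFD2, a mitochondrial folate enzyme, by 1.02, and PSAT1, of serine synthesis, by 0.65.

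Of 16 amino acid transporters, 13 were higher, SLC36A1, which carries small amino acids with protons, and its relative SLC36A4 were lower, and 1 was not called, with a median of 0.28. SLC7A11, the cystine and glutamate exchanger, was 12.03, 12.13, 11.96 and 12.01 with both treatments, 10.40, 10.32, 10.28 and 10.28 with PD98059 alone, 12.66, 12.67, 12.61 and 12.63 with depletion alone, and 10.74, 10.72, 10.74 and 10.75 with neither. The 4 groups did not overlap: depletion raised SLC7A11, PD98059 lowered it in either medium, and the net change was 1.30 ± 0.034. SLC6A9, a glycine transporter, rose by 0.93 and SLC43A1, a transporter of large neutral amino acids, by 0.81.

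Of 19 cytosolic aminoacyl-tRNA synthetases, which charge tRNAs, 12 were higher, 4 lower and 3 not called, with a median of 0.26. AARS1 was 12.08, 12.12, 12.09 and 12.06 with both treatments, 11.41, 11.45, 11.46 and 11.42 with PD98059 alone, 12.02, 12.02, 12.00 and 11.98 with depletion alone, and 11.37, 11.34, 11.38 and 11.38 with neither. Its net change was 0.72 ± 0.022, and the arrays with both treatments were the highest of the study. CARS1, MARS1 and GARS1, for cysteine, methionine and glycine, rose by 0.77, 0.68 and 0.66.

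**Figure D1:**
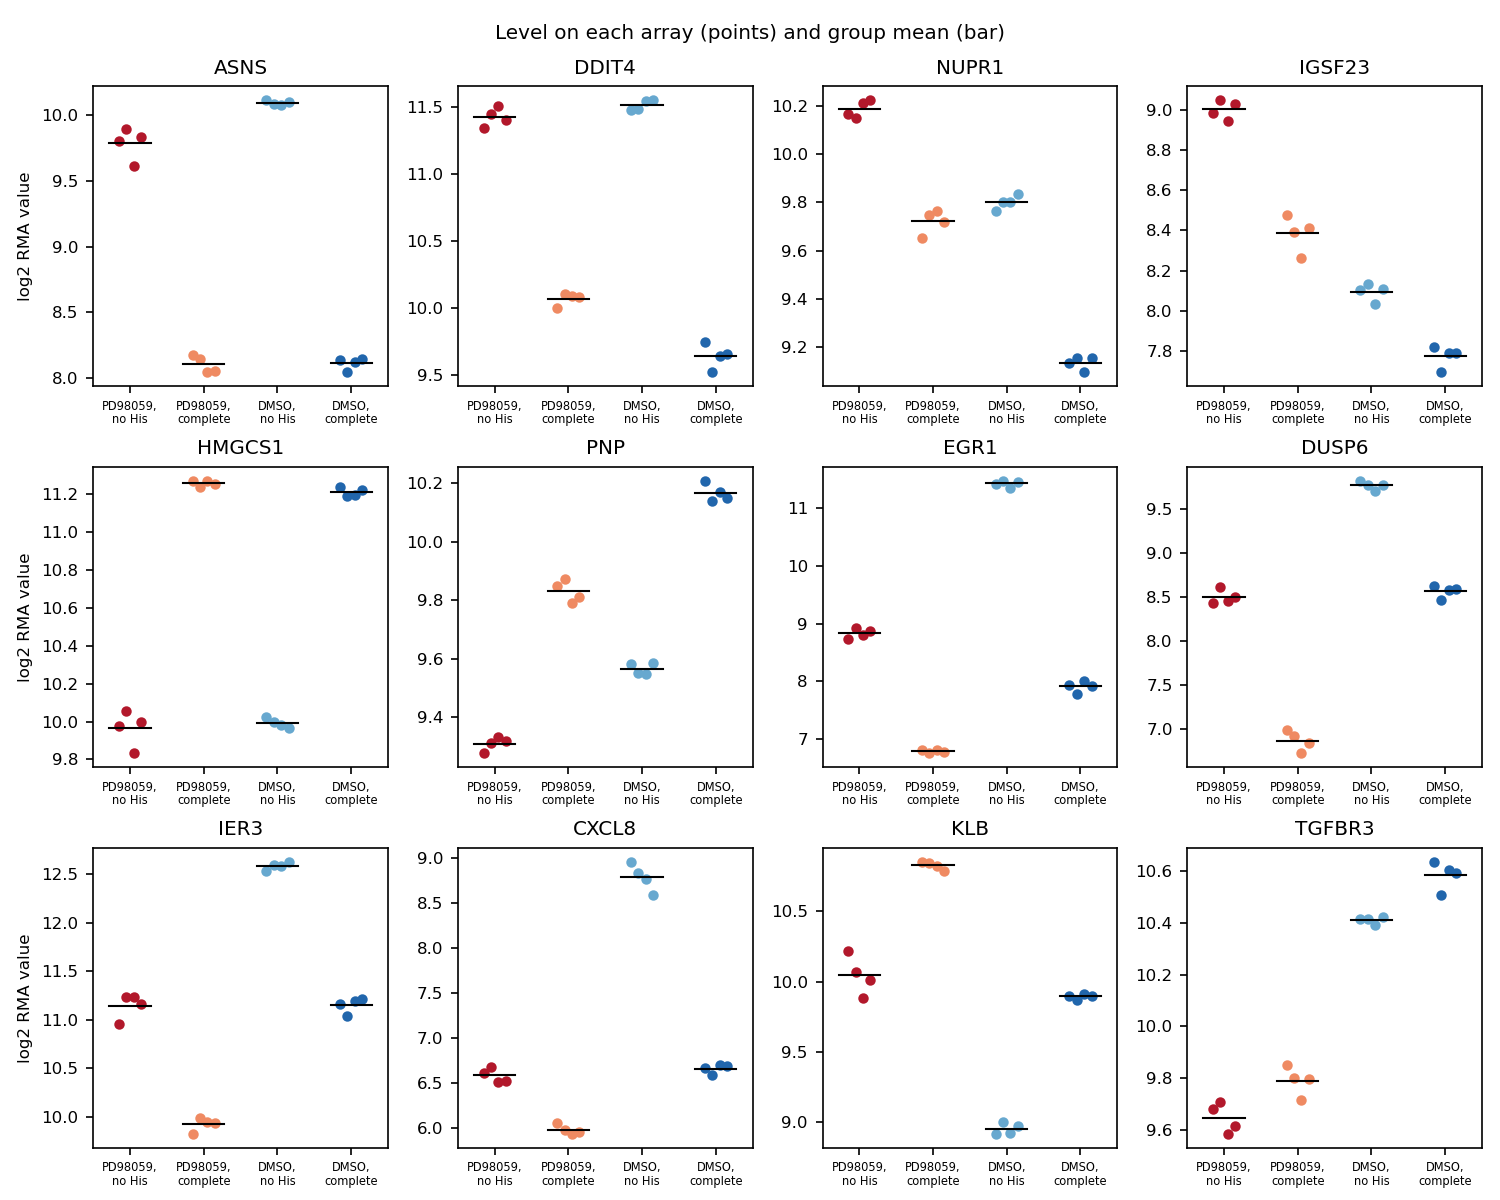
Log2 expression of 12 genes on each of the 16 arrays, with PD98059 without histidine at the left, then PD98059 in complete medium, DMSO without histidine and DMSO in complete medium. Points are arrays and bars are means of 4. ASNS and DDIT4 stay high with both treatments, NUPR1 and IGSF23 are highest there, PNP and TGFBR3 are lowest there, and DUSP6, IER3 and CXCL8 overlap DMSO in complete medium.

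Among genes of cholesterol synthesis and uptake, 15 of 17 were lower with both treatments, none was higher and 2 were not called, with a median net change of -0.57. HMGCS1, the synthase that supplies HMG-CoA, was 9.98, 10.06, 9.83 and 10.00 with both treatments, 11.27, 11.24, 11.27 and 11.25 with PD98059 alone, 10.03, 10.00, 9.98 and 9.97 with depletion alone, and 11.24, 11.19, 11.20 and 11.22 with neither. The net change was -1.25 ± 0.036, or 2.37-fold lower, and the groups split by medium and not by drug. The synthesis enzyme MSMO1 fell by 0.93, STARD4, a sterol carrier, by 0.92, and the enzymes IDI1, LSS and DHCR7 by 0.91, 0.84 and 0.75. Genes of fatty acid and triglyceride synthesis were mixed, with 9 of 16 lower and 5 higher: ELOVL6 and FADS2, an elongase and a desaturase, fell by 0.58 and 0.36, while DGAT2 and GPAM, the last and first enzymes of triglyceride assembly, rose by 0.75 and 0.67.

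Of 15 heat shock proteins and co-chaperones, 12 were lower and none higher, with a median of -0.19. HSPA1A, an inducible HSP70, was 9.84, 9.68, 9.78 and 9.67 with both treatments, 11.20, 11.36, 11.32 and 11.36 with PD98059 alone, 9.62, 9.67, 9.66 and 9.71 with depletion alone, and 11.25, 11.27, 11.32 and 11.31 with neither. The net change was -1.55 ± 0.042, but HSPA1A has a near-identical copy, HSPA1B, so the value may hold signal of both. DNAJA1, an HSP40 co-chaperone, fell by 0.69, HSPE1, the mitochondrial partner of HSP60, by 0.59 and BAG3, a co-chaperone of HSP70, by 0.49.

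Of 21 ATF6 and XBP1 targets, the chaperone and transport genes of the unfolded protein response, 17 were lower, 1 was higher and 3 were not called, with a median of -0.24. HSPA5, the main chaperone of the endoplasmic reticulum, was 12.60, 12.62, 12.47 and 12.54 with both treatments, 13.01, 12.97, 13.00 and 12.94 with PD98059 alone, 12.55, 12.59, 12.57 and 12.56 with depletion alone, and 13.09, 13.08, 13.06 and 13.10 with neither, a net change of -0.52 ± 0.030. SEC24D, a COPII coat subunit, fell by 1.04, the secreted stress factor MANF by 0.79 and SEC61B, a subunit of the translocon, by 0.55. For 8 of these 21 genes both averaged effects, defined in the next paragraphs, were called and negative. FKBP14, a prolyl isomerase of the endoplasmic reticulum outside that list, fell by 1.20.

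Among 29 genes of DNA replication and the G1/S step, 23 were lower, none higher and 6 not called, with a median of -0.21. MCM2, a subunit of the replicative helicase, was 9.73, 9.77, 9.77 and 9.74 with both treatments, 10.19, 10.27, 10.28 and 10.30 with PD98059 alone, 9.43, 9.51, 9.47 and 9.52 with depletion alone, and 10.15, 10.14, 10.20 and 10.18 with neither. Its net change was -0.41 ± 0.028, and the arrays with both treatments lay between those of depletion alone and those in complete medium. In bulk RNA a smaller share of cells in S phase and less RNA per cell cannot be told apart. FEN1, a flap nuclease, fell by 0.66 and RRM2, a subunit of ribonucleotide reductase, by 0.37. Of 23 mitosis and kinetochore genes, 10 were lower and 1 higher, with a median of -0.076.

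The net change of each gene is exactly the sum of 2 averaged effects from the 16 arrays: the depletion effect, no histidine minus complete medium averaged over PD98059 and DMSO, and the drug effect, PD98059 minus DMSO averaged over both media. They are orthogonal contrasts that share 1 estimate of the spread. The depletion effect was called for 8535 genes, 38.0%, with 3831 raised, 17.1%, and 4704 lowered, 20.9%. The drug effect was called for 6137 genes, 27.3%, with 3380 raised, 15.0%, and 2757 lowered, 12.3%.

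Where both effects were called, the 2 treatments opposed each other in more genes than they shared a direction. Directions were alike in 1012 genes, 4.50%: 497, 2.21%, were raised by both and 515, 2.29%, lowered by both. Directions were opposite in 3373 genes, 15.0%: 1494, 6.65%, were raised by depletion and lowered by PD98059, and 1879, 8.36%, were lowered by depletion and raised by PD98059. Of the 3373 opposed genes 1917, or 56.8%, were not called in the net comparison. The 1012 genes with like directions are called there by construction, since the net change is the sum of both. Depletion alone was called for 4150 genes, 18.5%, the drug alone for 1752, 7.80%, and neither for 12177, 54.2%. Without replicate 3 of PD98059 without histidine, the 4 classes with both effects held 687, 599, 1639 and 2209 genes in the order given here.

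**Figure D2:**
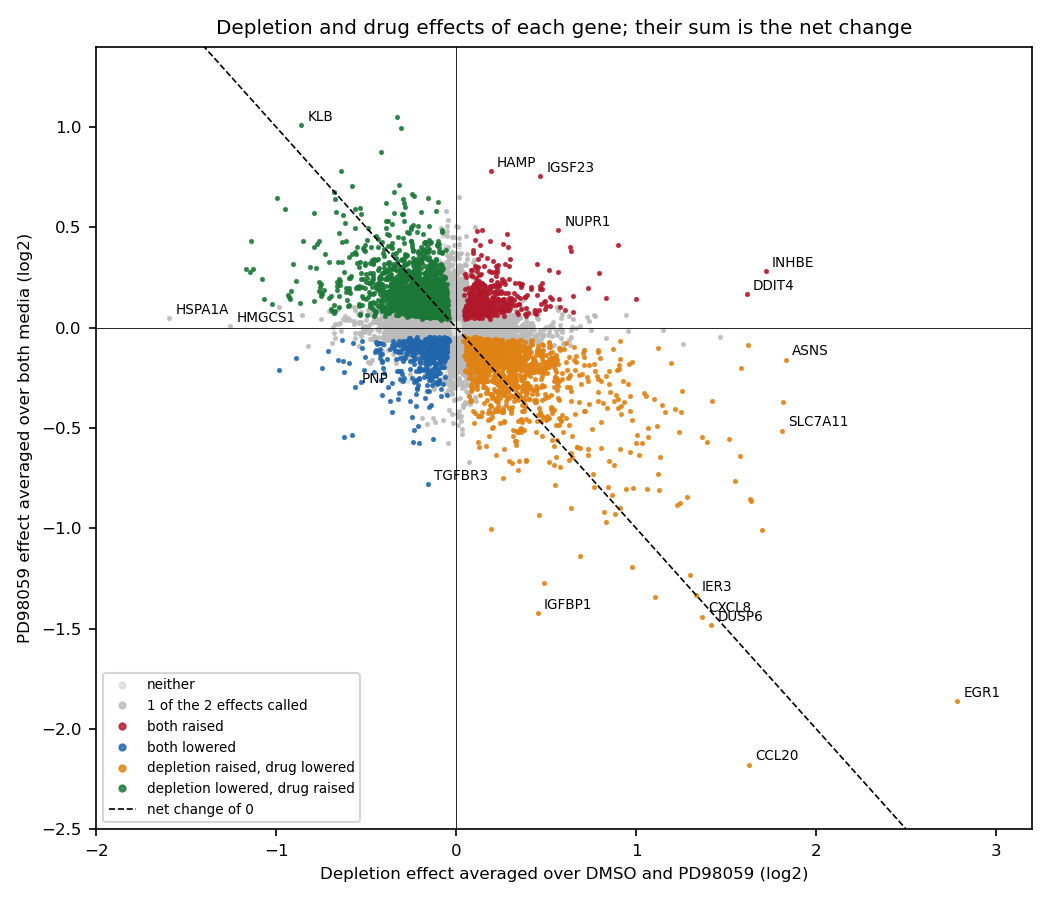
Averaged depletion effect (x axis, log2) against averaged drug effect (y axis, log2) for all 22464 genes, coloured by which effects were called and in which direction. The dashed line marks a net change of 0. Both effects were called in opposite directions for 3373 genes and in like directions for 1012. Genes without both effects called are plotted too.

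Genes whose 2 averaged effects were called in the same direction had modest averaged effects. Such a class does not show that the drug changed a gene in both media. For INHBE and DDIT4, both of them in it, the drug change without histidine was 0.03 and -0.09 and not called. In the genes raised by both, the median size was 0.138 for depletion, 0.117 for the drug and 0.284 for the net change. In the genes lowered by both, these were 0.141, 0.106 and 0.263. At 1.5-fold or more for both effects, no gene had like directions and 52, 0.231%, had opposite ones.

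NUPR1, a stress-induced chromatin-associated protein and ATF4 target, was 10.17, 10.15, 10.21 and 10.22 with both treatments, 9.65, 9.75, 9.76 and 9.72 with PD98059 alone, 9.76, 9.80, 9.80 and 9.83 with depletion alone, and 9.14, 9.16, 9.10 and 9.16 with neither. All arrays with both treatments were above all others, and all arrays with neither were below all others. The net change of 1.05 ± 0.029 was the sum of an averaged depletion effect of 0.57 and an averaged drug effect of 0.49. It was below the sum of the 2 single changes, 1.25.

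IGSF23, an immunoglobulin superfamily member, was 8.98, 9.05, 8.94 and 9.02 with both treatments, 8.47, 8.39, 8.26 and 8.41 with PD98059 alone, 8.10, 8.13, 8.03 and 8.11 with depletion alone, and 7.82, 7.70, 7.79 and 7.79 with neither. The 4 groups did not overlap, and the net change of 1.23 ± 0.042, 2.34-fold, held a depletion effect of 0.47 and a drug effect of 0.76. This net change was above the sum of the 2 single changes, 0.93. HAMP, which encodes the iron hormone hepcidin, was 11.79, 11.74, 11.92 and 11.82 with both treatments, 11.57, 11.72, 11.66 and 11.62 with PD98059 alone, 10.99, 11.01, 11.06 and 11.16 with depletion alone, and 10.84, 10.79, 10.89 and 10.87 with neither. Its groups did not overlap either, and most of its net change of 0.97 ± 0.045 was the drug effect of 0.78, with 0.19 for depletion. DGAT2 had 0.28 for depletion and 0.47 for the drug.

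Among the genes lowered by both, PNP, which breaks down purine nucleosides, was 9.28, 9.31, 9.33 and 9.32 with both treatments, 9.85, 9.87, 9.79 and 9.81 with PD98059 alone, 9.58, 9.55, 9.55 and 9.58 with depletion alone, and 10.21, 10.14, 10.17 and 10.15 with neither. The 4 groups did not overlap, and the net change was -0.86 ± 0.025, or 1.81-fold lower, with -0.56 for depletion and -0.30 for the drug. TGFBR3, a co-receptor for TGF-beta and inhibin, was 9.68, 9.71, 9.58 and 9.61 with both treatments, 9.85, 9.80, 9.72 and 9.79 with PD98059 alone, 10.42, 10.42, 10.39 and 10.42 with depletion alone, and 10.64, 10.51, 10.61 and 10.59 with neither. Its net change of -0.94 ± 0.035 was mainly the drug effect of -0.78. GDA, the guanine deaminase, fell by 0.78, MGAT5, an enzyme that branches N-glycans, by 0.68 and SFN, the 14-3-3 sigma protein, by 0.64.

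Among immediate-early genes and MEK and ERK outputs most members were opposed, where 15.0% of all genes were. A called drug effect is part of being opposed, and the lists were chosen with earlier results of these data known. The shares are therefore only a description. Of 27 MEK and ERK feedback and output genes, 21 were opposed, with 22 raised by depletion, 22 lowered by PD98059, and a net result of 9 higher, 6 lower and 12 not called. Their median was 0.55 for depletion, -0.40 for the drug and 0.013 for the net change. Of 28 immediate-early genes, 19 were opposed, with 21 raised by depletion and 20 lowered by PD98059. In the net comparison 13 were higher, 1, NR4A1, was lower and 14 were not called, with a median net change of 0.073.

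DUSP6, the phosphatase that inactivates ERK, was 8.43, 8.60, 8.45 and 8.49 with both treatments, 6.99, 6.92, 6.72 and 6.83 with PD98059 alone, 9.82, 9.77, 9.70 and 9.77 with depletion alone, and 8.62, 8.47, 8.57 and 8.58 with neither. The averaged effects were 1.42 for depletion and -1.48 for PD98059, and the groups with both and with neither overlapped. Depletion alone changed DUSP6 by 1.20 and PD98059 alone by -1.70, and the interaction was called at 0.42. The net change was -0.07 ± 0.053, with a 95% interval of -0.18 to 0.05 and adjusted p = 0.408 by limma.

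IER3, an immediate-early survival gene, was 10.95, 11.23, 11.24 and 11.16 with both treatments, 9.82, 9.98, 9.95 and 9.93 with PD98059 alone, 12.53, 12.60, 12.58 and 12.63 with depletion alone, and 11.16, 11.04, 11.19 and 11.21 with neither. Its effects were 1.33 and -1.33, and the interval of the net change was -0.12 to 0.12. SPRY2, a Sprouty inhibitor of receptor signalling, had a net change of 0.02 with an interval of -0.07 to 0.10. SPRY4, ETV5 and ETV4, the last 2 of them ETS factors, were lower by 0.22, 0.24 and 0.37 on the log2 scale.

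EGR1 was 1 of the immediate-early genes that lay above untreated cells when both treatments were given. It was 8.73, 8.93, 8.81 and 8.87 with both treatments, 6.82, 6.75, 6.81 and 6.77 with PD98059 alone, 11.43, 11.48, 11.36 and 11.46 with depletion alone, and 7.95, 7.78, 8.01 and 7.92 with neither. The 4 groups did not overlap. The depletion effect of 2.79 exceeded the drug effect of -1.86, and the net change was 0.92 ± 0.048, or 1.90-fold higher. JUN, KLF10, TNFAIP3, MYC and KLF6, all of them transcription factors except TNFAIP3, an inhibitor of NF-kB signalling, were also higher with both treatments, by 0.82, 0.74, 0.67, 0.53 and 0.47. CCND1, which encodes cyclin D1, was higher by 0.18, and FOS by 0.13 with adjusted p = 0.0262 by limma. But for FOS the adjusted p of limma was 0.051 to 0.088 in 6 alternatives: without replicate 3 or 4 of PD98059 without histidine, without any of the untreated replicates 2, 3 and 4, and with the 2 groups alone. Without replicate 3 of PD98059 without histidine FOS was 0.084 higher.

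Among inflammatory cytokines and NF-kB targets, which include intracellular regulators, the treatments also opposed each other in part. Of 16 such genes, 8 were opposed, and in the net comparison 5 were higher, CCL20 was lower and 10 were not called. CXCL8, a neutrophil chemokine, was 6.62, 6.68, 6.52 and 6.52 with both treatments, 6.06, 5.98, 5.93 and 5.95 with PD98059 alone, 8.96, 8.83, 8.77 and 8.59 with depletion alone, and 6.67, 6.59, 6.70 and 6.69 with neither. CXCL8 was high in the 4 arrays without histidine and without PD98059 and in no other, and the interval of its net change was -0.21 to 0.05. LIF, a cytokine of the IL-6 family that is on the MEK and ERK output list, was 7.74, 7.78, 7.79 and 7.78 with both treatments, 7.50, 7.56, 7.36 and 7.44 with PD98059 alone, 9.29, 9.30, 9.23 and 9.30 with depletion alone, and 7.69, 7.67, 7.85 and 7.83 with neither. CCL20, a chemokine for lymphocytes, was 9.33, 9.74, 9.50 and 9.67 with both treatments, 7.88, 7.87, 7.52 and 7.72 with PD98059 alone, 11.63, 11.58, 11.46 and 11.55 with depletion alone, and 10.19, 9.97, 10.12 and 10.16 with neither. Here PD98059 outweighed depletion, with -2.18 against 1.63, and CCL20 ended 0.55 ± 0.088 below untreated cells on the log2 scale, with adjusted p = 0.000137 by limma.

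Ribosome biogenesis genes were opposed in 16 of 20 cases, with 16 raised by depletion and 18 lowered by PD98059. In the net comparison 5 were higher, 4 lower and 11 not called, with a median of -0.017. Cholesterol and replication genes were opposed in the other sense: 11 of 17 and 15 of 29 were lowered by depletion and raised by PD98059, with median drug effects of 0.12 and 0.071, well short of their median depletion effects of -0.76 and -0.28.

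Of the 52 genes with opposite effects of at least 1.5-fold each, 46 were raised by depletion and lowered by PD98059. Their net changes ran between -0.55 and 0.94, with 21 higher, 5 lower and 20 not called. Besides EGR1, DUSP6, IER3, CXCL8, LIF and CCL20 they included the YAP and serum response targets ANKRD1, CCN1 and CCN2, the EGF family ligand EREG, the receptor EPHA2, the feedback inhibitors SPRY1 and SPRED1, and the mRNA-decay protein ZFP36. The other 6 were lowered by depletion and raised by PD98059: KLB, PDZK1, PDZK1P1, PLA2G12B, SLCO4C1 and SMLR1. PDZK1P1 is a pseudogene of PDZK1, so the 2 may share signal.

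KLB, the co-receptor that hepatocytes need for FGF19, was 10.22, 10.07, 9.89 and 10.01 with both treatments, 10.85, 10.84, 10.82 and 10.79 with PD98059 alone, and 9.90, 9.87, 9.92 and 9.90 with neither. With depletion alone it averaged 8.95 ± 0.043 (SD, n = 4), below every other array. Its depletion effect of -0.86 and drug effect of 1.01 left 0.15 ± 0.049, with adjusted p = 0.0315 by limma. The groups with both and with neither overlapped. The adjusted p of limma was 0.0504 to 0.122 in 8 alternatives: without replicate 1 or 2 of PD98059 without histidine, without any 1 of the DMSO arrays in complete medium, with a median shift, and with the 2 groups alone. Without replicate 1 of PD98059 without histidine the net change of KLB was 0.092.

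**Figure D3:**
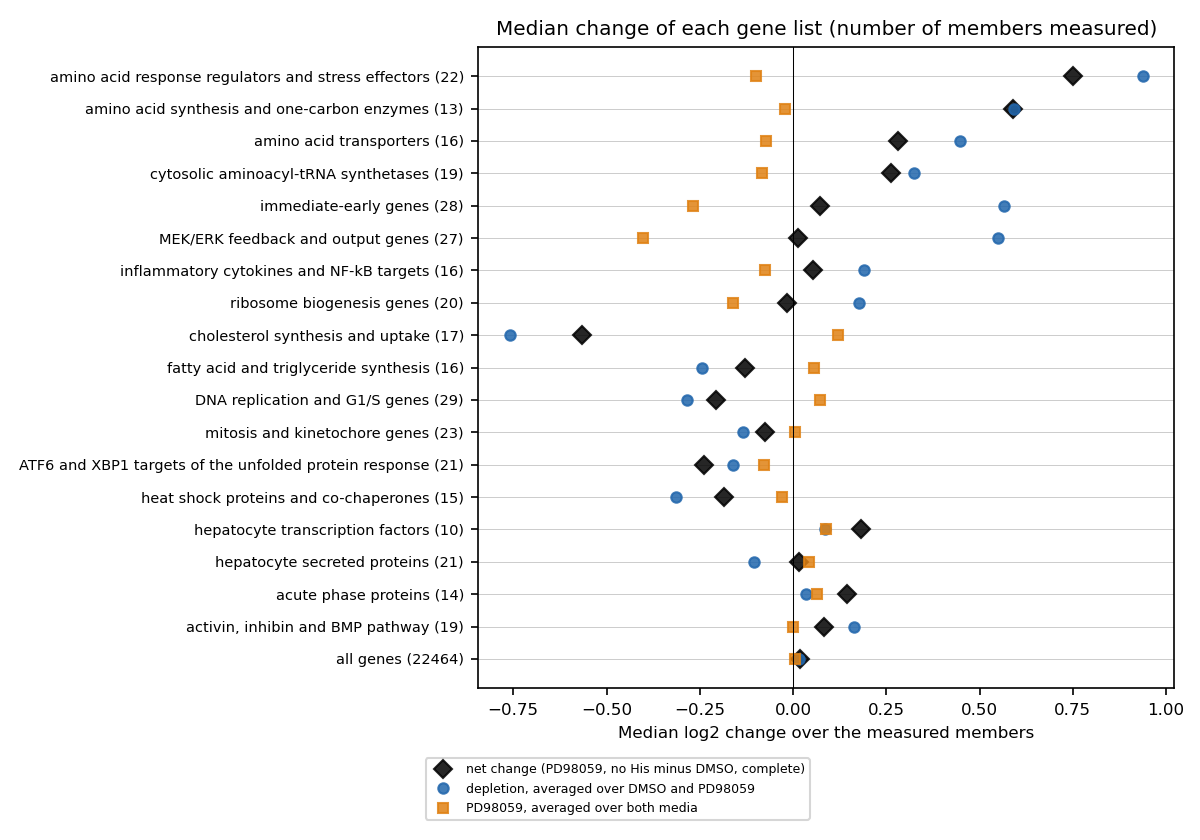
Median log2 change of 18 gene lists and of all genes in the net comparison, for the averaged depletion effect and for the averaged drug effect. The amino acid lists lie at net medians of 0.26 to 0.75, cholesterol synthesis lies at -0.57, and the MEK and immediate-early lists lie near 0 between a positive depletion and a negative drug median.

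Whether the combined change equalled the sum of the single changes was tested by the interaction, the net change minus the sum of the depletion change in DMSO and the drug change in complete medium. It was called for 1289 genes, 5.74%: the net change was above the sum in 654, 2.91%, and below it in 635, 2.83%. At 1.5-fold or more 2 were above, 0.00890%, and 43 below, 0.191%. Without replicate 3 of PD98059 without histidine the counts were 1747 above and 1398 below, and without others of the arrays the count above was as low as 401. The single changes share the untreated arrays with the net change, so the values are given side by side and the interaction is the test.

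The net change of the amino acid response regulators tended to be below the sum: 14 of 22 were called below it and none above, with a median departure of -0.238, against -0.0164 over all genes. SESN2 had a net change of 1.54, against a sum of 2.21, a departure of -0.67 ± 0.054. For DDIT4 the net change was 1.78 and the sum 2.30. DDIT3, with a departure of 0.09 and adjusted p = 0.556 by limma, was not called. Among synthesis enzymes 6 of 13 were below the sum, among transporters 5 of 16 and among tRNA synthetases 3 of 19, with none above in these 3 lists. ASNS, of the synthesis enzymes, had a net change of 1.67 and a sum of 1.97, and INHBE, of the activin list, 2.00 and 2.51.

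Genes with the lowest interaction p included several that depletion raised strongly with DMSO. CXCL8 had a net change of -0.08, against a sum of 1.44, a departure of -1.52 ± 0.086 with adjusted p = 3.2e-08 by limma. For EGR1 the net change was 0.92 and the sum 2.40, with a departure of -1.47 ± 0.067, and for LIF they were 0.01 and 1.23. RND1 was 7.86, 7.91, 8.01 and 7.94 with both treatments, 7.68, 7.73, 7.73 and 7.76 with PD98059 alone, 8.82, 8.78, 8.72 and 8.82 with depletion alone, and 7.23, 7.18, 7.44 and 7.35 with neither. Each treatment alone raised RND1, and their combination gave 0.63 in place of the sum of 1.91. MXD1, a MAX partner that opposes MYC, the survival protein MCL1 and the heparan sulfate proteoglycan SDC4 departed by -0.92, -0.78 and -0.69. Of the immediate-early genes 14 of 28 were below the sum and 1 above, and of the MEK and ERK outputs 12 of 27 below and 6 above.

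IGFBP1, a liver-secreted binding protein for insulin-like growth factors, was 10.00, 10.39, 10.15 and 10.25 with both treatments, 10.38, 10.37, 9.87 and 10.14 with PD98059 alone, 12.20, 12.08, 11.99 and 11.99 with depletion alone, and 11.36, 10.97, 11.09 and 11.26 with neither. Depletion raised it by 0.90 with DMSO, PD98059 lowered it by 0.98 in complete medium, and with both it was 0.97 ± 0.110 below untreated cells on the log2 scale. The arrays with PD98059 overlapped between the 2 media, and the departure from the sum was -0.89 with adjusted p = 0.00246 by limma.

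Other genes lay above the sum. SGK1, a kinase related to AKT, was 7.39, 7.40, 7.33 and 7.42 with both treatments, 7.48, 7.43, 7.41 and 7.45 with PD98059 alone, 6.88, 6.92, 6.87 and 6.93 with depletion alone, and 7.56, 7.50, 7.52 and 7.52 with neither. Depletion lowered it by 0.63 with DMSO, and the net change was -0.14, against a sum of -0.71. ETV5 was 9.15, 9.25, 9.22 and 9.23 with both treatments, 8.41, 8.35, 8.23 and 8.36 with PD98059 alone, 9.65, 9.71, 9.65 and 9.68 with depletion alone, and 9.48, 9.43, 9.47 and 9.42 with neither. Its net change of -0.24 was above a sum of -0.89. BAMBI, a pseudoreceptor of the TGF-beta family, had a net change of 0.57 and a sum of 0.09, and among DNA replication genes 10 of 29 were above the sum with none below.

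**Figure D4:**
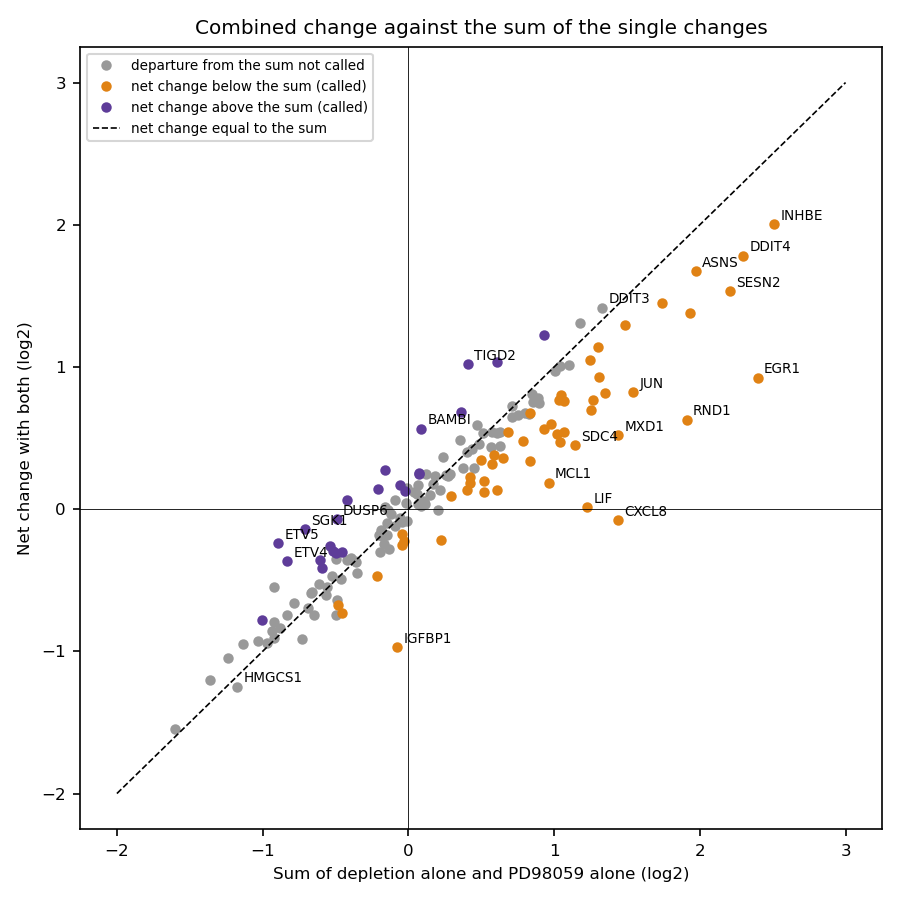
Sum of the 2 single-treatment changes (x axis, log2) against the net change (y axis, log2) for the genes named by rule, coloured by whether the interaction was called. The line marks equality; both axes use the same untreated arrays. CXCL8, EGR1, LIF and RND1 lie well below the line and SGK1 and ETV5 above it.

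Hepatocyte genes gave more higher than lower calls in the net comparison, where 13.4% of all genes were higher and 14.7% lower. Of 10 hepatocyte transcription factors 7 were higher, PPARA was lower and 2 were not called, with a median of 0.18. FOXA1, a pioneer factor of liver enhancers, was 10.11, 10.08, 10.08 and 10.10 with both treatments, 10.33, 10.30, 10.28 and 10.28 with PD98059 alone, 9.42, 9.44, 9.48 and 9.55 with depletion alone, and 9.85, 9.85, 9.88 and 9.80 with neither. Depletion lowered FOXA1 and PD98059 raised it, and the net change was 0.25 ± 0.029. FOXA3 and CEBPA rose by 0.36 each. Of 21 secreted hepatocyte proteins 6 were higher, 2 lower and 13 not called, and 9 were opposed; HPX, which binds haem, rose by 0.40 and KNG1, the kininogen, by 0.32. Of 14 acute phase proteins 8 were higher and 2 lower: ORM1, an acid glycoprotein, rose by 0.29, while HP, which binds haemoglobin, fell by 0.30. Of 13 bile acid and FGF19 genes 2 were higher, near the share over all genes, and 11 not called.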

How the data were processed

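The deposited log2 values of the 16 arrays were produced by the authors with RMA and Partek 6.6 on build hg19, per the submitters' processing notes. Settings of RMA are not given in the sources used here. In its usual form it equalises array distributions and compresses low signals. Scanner files were not used here, so neither background nor scan date was examined. Precision is limited by the number of arrays. Of 70459 rows, 23780 had 1 gene symbol in the platform annotation, 1543 had several and were left out, and 45136 were unnamed here. Of the named rows, 21496 matched RefSeq, which changed 0 symbols. For 479 symbols with several rows the row with the highest mean over 16 arrays was kept, giving 22464 genes.

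limma 3.58.1 in R 4.3.3 fitted 4 group means on all 16 arrays, and contrasts gave the net change, the 2 averaged effects, the single changes and the interaction, with Benjamini-Hochberg adjustment over all genes. The script was tested on simulated data. Genes were named by rule: the 10 highest and 10 lowest net changes, 6 in each class with both effects, 6 interaction calls in each direction, and up to 4 per list, besides genes picked by role. These, the 33 lists and the comparison were chosen with earlier results of these data known. Alternatives were quantile normalization, a median shift, array weights, other filters and thresholds, all rows, 2 groups only, a replicate block and leaving out each array. No replicate block was used in the main fit.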

Additional observations from a re-analysis of the deposited data

Results flagged for a closer look

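In groups of 4 arrays, 1 array stood far from the other 3 by Dixon's test in 19 of 346 groups checked; chance gives about 1 in 20. With PD98059 and no histidine the isolated array was replicate 3, which stands apart in general, for 7 of 12 genes: it read 8.56 for DDIT3, 8.18 for FKBP14, 7.87 for STARD4, 9.12 for MANF, 9.69 for NFIL3, 6.81 for COL1A2 and 6.88 for THY1. It was replicate 1 for KLF10 at 9.45, PER2 at 9.39 and LYVE1 at 6.62, replicate 2 for KLF6 at 10.67, and replicate 4 for CCND1 at 11.55. With DMSO in complete medium it was replicate 2 for MGAT5 at 10.36, CEBPA at 10.56, TNFRSF10B at 10.52 and CHAC1 at 7.59, replicate 3 for MSMO1 at 11.38, and replicate 4 for SDC4 at 11.29 and UTP4 at 12.16.

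The effect of depletion differed between PD98059 and DMSO, by the interaction of limma's fit over all 16 arrays, for 75 of the 173 genes named by rule. Over all genes 5.74% were called. Some of the 173 were named because their interaction was called, so a higher share among them is in part built in. Values follow for 32 of them: those with the lowest p, those picked by role and those whose arrays or interaction are given in the text. On the amino acid lists the interaction was -0.30 for ASNS, -0.67 for SESN2, -0.52 for DDIT4, -0.55 for CTH, -0.19 for SLC7A11, -0.24 for TRIB3, -0.23 for ATF4, -0.56 for ATF3 and -0.38 for CHAC1. Among immediate-early, MEK and inflammatory genes it was -1.52 for CXCL8, -1.47 for EGR1, -1.22 for LIF, -0.78 for MCL1, -0.47 for FOS, -0.44 for SPRY4, 0.42 for DUSP6, 0.66 for ETV5 and 0.47 for ETV4. Elsewhere it was -1.28 for RND1, -0.92 for MXD1, -0.89 for IGFBP1, -0.69 for SDC4, -0.52 for NR1D1, -0.51 for INHBE, -0.20 for NUPR1, 0.18 for MCM2, 0.18 for FOXA1, 0.30 for IGSF23, 0.57 for SGK1, 0.49 for ARHGEF3, 0.48 for BAMBI and 0.43 for PKP2.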

How the results depend on the processing

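No called net change or interaction of a named gene reversed under the alternatives in which it was compared. Of the 26 alternatives run, the test of every row was not compared for named genes or lists. The 2 groups alone gave no interaction. The counts over all genes stayed within 1.5 times in 284 of 304 comparisons with the main setting. The counts of list members higher or lower in the net comparison did so in 1599 of 1650. List counts of interaction calls and of opposed genes were not compared. At an adjusted p under 0.01, 294 genes were raised by both treatments and 298 lowered by both, and the interaction was called above the sum in 252 genes and below it in 340. With array weights the interaction counts were 2363 above and 2252 below, and with a median shift 321 were above. With every row of the table tested, 4782 rows were higher and 6005 lower in the net comparison, 250 and 227 of them at least 1.5-fold, 10404 had depletion alone called and 3469 the drug alone; more rows were tested here. Leaving out each array in turn gave 2632 to 3220 higher and 2882 to 3422 lower, 106 to 128 and 73 to 103 of them at least 1.5-fold, 412 to 687 raised by both, 426 to 599 lowered by both, 1381 to 1639 raised by depletion and lowered by the drug, 1698 to 2209 the other way, 3747 to 4668 with depletion alone and 1662 to 2063 with the drug alone. The interaction count ranged over 401 to 1747 above and 478 to 1398 below. The count above was 1747 without replicate 3 of PD98059 without histidine, 404 and 408 without replicates 3 and 4 of PD98059 in complete medium, 414 without replicate 3 of DMSO without histidine, and 401 and 412 without replicates 1 and 3 of DMSO in complete medium; the cause was not tested. With the replicate number as a block, 3236 genes were higher and 3422 lower, and the interaction was called above the sum in 771 and below it in 721; the labels do not say that numbers pair incubations, and deviations of same-numbered arrays correlated at -0.32 to 0.51. Over all pairs of groups, 9 of 24 arrays correlated best with their own number: 0 of 4 between both treatments and neither, but 3 of 4 between PD98059 without histidine and PD98059 in complete medium. With the 2 groups alone, 2369 were higher and 2700 lower. Interaction calls of single genes were less stable than net calls: 166 of 4146 comparisons lost an interaction call and 32 of 4319 a net call, among them KLB, FOS and the fibroblast marker PDGFRB. These totals hold all named genes, called or not. Only genes called in the main setting, 75 of 173 for the interaction, could lose a call, so the fractions understate the rate of loss. The interaction call was lost most often for ZNF280A, under 16 alternatives, and under 15 each for ARRDC4, EPHA2, ERRFI1 and TIGAR. Of the genes whose interaction is listed above, it was lost under 9 alternatives for SLC7A11, 8 for CHAC1, 6 for TRIB3, 2 each for ASNS and FOXA1, and 1 for MCM2.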

Other observations

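Net results of the other groups varied, where 13.4% of all genes were higher and 14.7% lower. Of 13 Kruppel-like factors 7 were higher with both treatments and 1 lower, with a median of 0.25. Of 16 circadian clock genes 6 were higher and 3 lower: PER2 and NR1D1, repressors of the clock loop, were higher by 0.59 and 0.54 on the log2 scale. For NR1D1 the sum of the single changes was 1.07, and the interaction was -0.52 with adjusted p = 5.51e-06 by limma. Of 22 autophagy and lysosome genes 5 were higher and 5 lower, with MAP1LC3B, which coats autophagosomes, 0.53 higher, WIPI1, which acts at their formation, 0.75 lower and GLA, a lysosomal galactosidase, 0.47 lower.

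Glucose genes divided. TXNIP, an arrestin that limits glucose uptake, was higher by 0.76, while the glucose transporter SLC2A1 was 0.47 lower and PFKFB4, a regulator of glycolysis, 0.61 lower. SLC2A1 read 12.15, 12.23, 12.27 and 12.18 with both treatments, 12.04, 12.08, 12.06 and 12.04 with PD98059 alone, 12.74, 12.79, 12.78 and 12.80 with depletion alone, and 12.70, 12.65, 12.67 and 12.69 with neither. The arrays thus split by drug, with a drug effect of -0.60 and a depletion effect of 0.13. PMAIP1, the BH3-only protein NOXA, was higher by 0.82, and 4 of 16 apoptosis genes were higher and 3 lower. Of 13 NRF2 targets 3 were higher and 5 lower, of 13 p53 targets 4 and 2, of 20 mTORC1 regulators 3 and 5, and of 13 P450 and xenobiotic genes 5 and 0. Several of these shares are near those over all genes. CYP1A1, which oxidises aromatic hydrocarbons, was 0.34 higher with both treatments, against changes of 0.51 with depletion alone and 0.32 with PD98059 alone. Of 13 genes of histidine use 3 were higher and 10 were not called.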
